A study of Drosophila montana with 23 samples.

Results

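Females of *Drosophila montana* that had ended diapause (250D, 250 days old, sampled in spring conditions) were compared with females of the same strain that had never entered it (150ND, 150 days old, sampled in winter conditions). Each group had 3 of the 23 arrays of the series, chosen by the state and age in their labels, and the comparison covered all 218 genes with a probe on the custom array, out of 219 that the study named. Both groups were whole females of the isofemale line 175OJ8, reared in a climate chamber that followed the light and temperature of northern Finland, and per the study's methods both had mature ovaries. The 250D females had entered the chamber in late summer, had overwintered in diapause in cold and constant darkness, and had then returned to reproduction under spring conditions. The 150ND females had first been held in light and warmth that prevent diapause and were taken during the cold, dark winter period. Each array held the pooled RNA of 2 females, and the line stands for 1 founding female. Past diapause, age, season, light and temperature therefore differed together between the groups and cannot be told apart.

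Reproductive diapause in *Drosophila* is an arrest of egg development that short autumn days switch on in young females, and it comes with stored lipid, raised stress resistance and long life. After the arrest ends, the ovary resumes yolk deposition and the female feeds, mates and lays eggs. Northern flies of the *D. virilis* group are known for a strong photoperiodic diapause that carries them through winter as adults. Gene roles below are those known from *D. melanogaster*.

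Before the contrast, the 6 arrays were set against each other and against the other groups. Their median gene-spot intensity ran from 30.3 to 44.2, between 64.7 and 77.4% of their gene spots were well above background, and 202 of the 218 genes were above background on all 6 arrays. Replicate c of 150ND stood apart from the other 150ND arrays: the array most like it among all 23 was a diapausing winter array, 150D replicate a, with a Pearson r across genes of 0.978. The summed intensity of 7 genes listed as ovary markers was 276510, 272500 and 92194 in 150ND replicates a, b and c and 260450, 264810 and 107070 in 250D replicates a, b and c, against 15618 to 18742 in the diapausing 150D females of the same winter. *Hsp26* and *Hsp23* made up most of this sum. On the a and b arrays of both groups *Hsp26* lay at or next to 17.36, the highest log2 value that quantile normalization allows. The similar sums of those arrays are therefore largely set by the normalization and cannot show how alike their ovary content was. Both c arrays thus lay below their groups on the ovary list but well above the diapausing arrays. In such pools of whole flies, fewer ovarian cells and less RNA per cell cannot be told apart. Results that rest on 150ND are therefore given with all 3 arrays and, for every called gene and the main lists, also without replicate c.

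The arrays could also be placed on a scale set by a contrast of other groups. The 250D and 150ND arrays were not in its compared means, but shared in its normalization, choice of probes and estimate of spread. Between the diapausing and non-diapausing females at 50 days, 38 genes were higher and 23 lower in diapause (28% of all genes), and each array's position was the mean log2 intensity of the first set minus that of the second. The 50-day non-diapausing arrays (50ND), which helped to choose the genes, lay between -1.89 and -1.38 and the 50-day diapausing arrays (50D) between 2.06 and 2.46. The 250D arrays lay at -1.66, -1.73 and -0.51. The 150ND arrays lay at -0.31, -0.17 and 1.62, with replicate c near the range of the 150D arrays, 1.90 to 2.32. All 3 post-diapause arrays were therefore further towards the non-diapausing end than any array of the winter females that had not diapaused. The females still ending diapause at 220 days (220D) lay at 1.91 to 2.30.

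**Figure D1:**
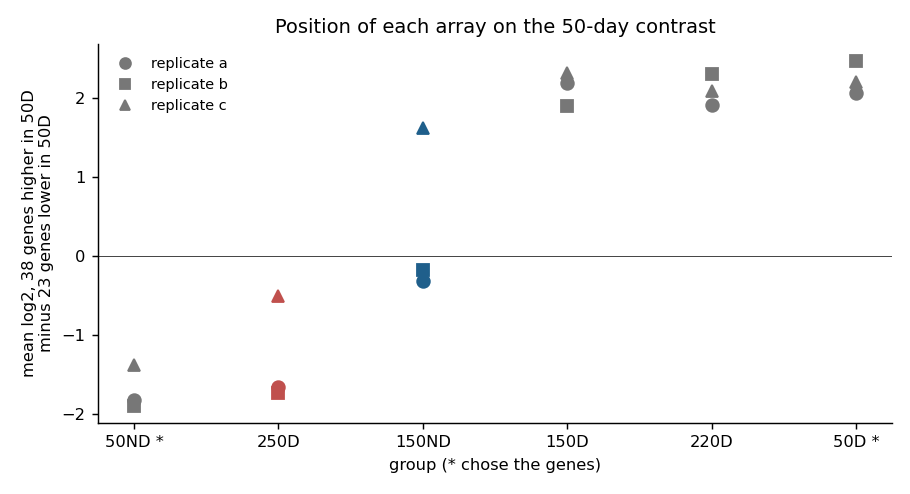
Position of each array on the contrast between diapausing and non-diapausing females at 50 days (vertical axis, log2 units; higher means more like diapause), by group (horizontal axis), with replicates a, b and c as circle, square and triangle. The 250D arrays lie at -1.66, -1.73 and -0.51 and the 150ND arrays at -0.31, -0.17 and 1.62, while every 150D and 220D array lies above 1.8.

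Between 250D and 150ND, 23 of 218 genes (10.6%) passed a Benjamini-Hochberg adjusted p of 0.05 in limma with at least a 2-fold change, 9 of them higher (4.13%) and 14 lower (6.42%) in 250D. The higher genes were led by *Adh*, *ninaD*, *CG34366* and *Jon25Bi*, with products for alcohol oxidation, carotenoid uptake and protein digestion among them. The lower genes were led by the desaturase gene *CG9747*, the light channel gene *trpl* and *CG6785*, and they included the stress genes *Hsr_omega*, *stv*, *Fst* and *Hsp68*. Without 150ND replicate c the count was again 23 (10.6%), now 11 higher (5.05%) and 12 lower (5.5%), and 18 genes were called both ways. The arrays of the groups did not overlap for 57 of all 218 genes (26.1%), and for 21 of the 23 called, the exceptions being *CG17928* and *Fst*. At an unadjusted p under 0.05 there were 47 genes with all 3 150ND arrays and 55 without replicate c. The limma fit estimated the spread of each gene over all 23 arrays. With 7ND replicate c, an array outside the comparison, left out of that spread, 10 genes were higher and 21 lower.

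**Figure D2:**
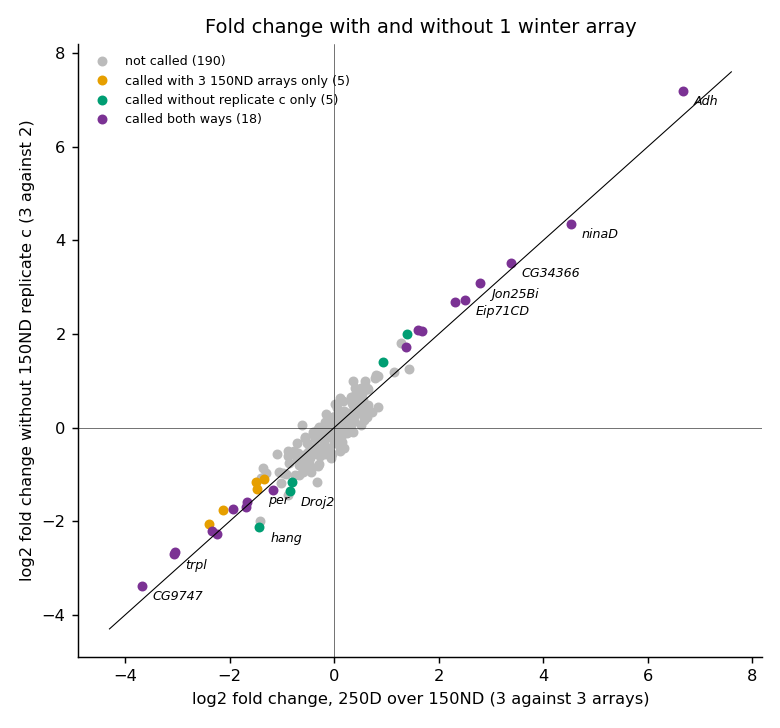
Log2 fold change of 250D over 150ND for each of the 218 genes with all 3 150ND arrays (horizontal axis) and without 150ND replicate c (vertical axis), 1 point per gene; the diagonal marks equal values. The 18 genes called both ways lie along the diagonal, 5 genes were called with all 3 150ND arrays only and 5 without replicate c only.

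*Adh*, which encodes the alcohol dehydrogenase that lets flies use and detoxify ethanol, had the largest change on the array. Its log2 intensity was 13.82, 13.95 and 13.50 in 250D replicates a, b and c and 7.10, 6.03 and 8.12 in those of 150ND. The lowest 250D array was over 5 log2 units above the highest 150ND array, and the log2 fold change was 6.68 ± 0.47 (SE, n = 3 against 3; adjusted p = 4.57e-09), a 102-fold difference, or 7.19 without replicate c. All 6 of its probes were called higher. *Adh* stood at a mean of 12.85 in 50ND, 7.56 in 150D and 10.50 in 220D, so both winter groups were low. Diapausing females outside winter had means of 13.55 at 7 days and 10.1 at 50 days, the latter below 50ND. Whether the level followed season, age or diapause was not tested.

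The other genes of carbohydrate metabolism moved far less. The list of 8 such genes had 1 higher and none lower, with a median log2 fold change of 0.62 where the median of all 218 genes was -0.02, and without replicate c it was 0.44 where that of all genes was -0.10. All 8 were above 0 (under spike-in scaling *Acon*, the aconitase gene, was not). *Gapdh2*, a glycolytic enzyme gene, stood at 13.60, 13.79 and 13.54 in 250D and and a mean of 12.81 ± 0.72 (SD) in 150ND, with replicate c the lowest. Its groups did not overlap, but its change of 0.83 ± 0.30 had an adjusted p of 0.094 and dropped to 0.43 without replicate c. *Treh*, which encodes the enzyme that splits the blood sugar trehalose, had 1.15 ± 0.49 (adjusted p = 0.17), and *Pgm*, which encodes phosphoglucomutase, 0.62 ± 0.31 (adjusted p = 0.28; 0.84 without replicate c). For *Pgm* the brightest probe was not called, while 4 of its 8 probes were.

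*ninaD* and *Jon25Bi*, the gut markers on the array, were both higher after diapause. *ninaD* encodes a scavenger receptor that takes up carotenoids, from which the chromophore of rhodopsin is made. Its log2 intensity was 7.65, 6.55 and 7.66 in 250D and 3.41, 2.45 and 2.42 in 150ND, where it was not well above background on any array. Measured against the lowest signal that still passed background, *ninaD* was at least 12.9-fold higher in 250D (adjusted p = 2.81e-05; fitted log2 fold change 4.53 ± 0.60, or 4.36 without replicate c). Only 2 of its 4 probes were called, both in the higher direction.

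*Jon25Bi*, a serine protease gene of the Jonah family of digestive enzymes, stood at 16.54, 16.54 and 16.46 in 250D and at 13.32, 13.53 and 14.30 in 150ND. The 250D values were close together near the top of the intensity scale, and the change of 2.80 ± 0.46 (adjusted p = 0.00019; 3.09 without replicate c) was seen by 10 of 10 probes. The summed intensity of these 2 gut genes was 90264 to 95628 in 250D and 10258 to 20156 in 150ND, 29832 to 76138 in 50ND, 16594 to 39379 in 150D and 5280 to 23921 in 220D. Every 250D array lay above every array of those 4 groups in this sum, but at 7 days it was 142810 and 111110 in the non-diapausing females and 52340 to 82622 in the diapause-destined ones, so the 250D level was not the highest of the series. In 250D and 150ND nearly all of the sum was *Jon25Bi*, as *ninaD* was many log2 units lower, so the sum adds little to *Jon25Bi* itself. Whether gut mass or expression per cell differed was not tested.

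*CG34366* was higher in 250D, at 10.92, 10.67 and 10.99 against 7.29, 7.40 and 7.75 in 150ND, a change of 3.38 ± 0.51 (adjusted p = 7.41e-05; 3.52 without replicate c). The call rested on 1 of its 8 probes, and its second-brightest probe differed by -0.04. *Eip71CD*, which encodes the ecdysone-induced methionine sulfoxide reductase that repairs oxidized proteins, stood at 9.02, 8.35 and 10.20 in 250D and 6.59, 6.35 and 7.14 in 150ND, a change of 2.50 ± 0.37 (adjusted p = 6.77e-05; 2.72 without replicate c) shared by 7 of 8 probes. It was the only one of 3 antioxidant genes to be called. *CG17928*, of the family of fatty acid desaturases and cytochrome b5-related proteins, was higher by 1.60 ± 0.46 (adjusted p = 0.027), with values of 7.23, 6.79 and 8.31 in 250D and 4.94, 5.76 and 6.82 in 150ND. The groups of *CG17928* overlapped through 150ND replicate c, and without it the change was 2.09. The call ended under spike-in scaling (adjusted p = 0.13) and without normalization (0.066).

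**Figure D3:**
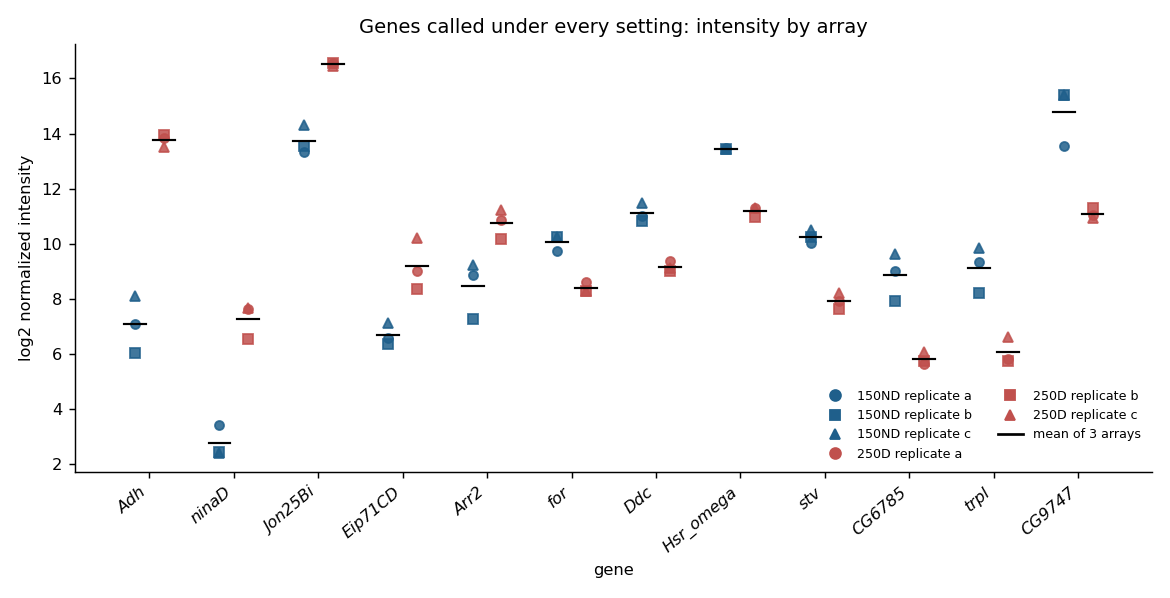
Log2 normalized intensity (vertical axis) on each 250D and 150ND array for the 12 genes called in the same direction under all 27 processing settings (horizontal axis); symbols mark replicates and black bars the mean of 3 arrays. *Adh*, *ninaD*, *Jon25Bi*, *Eip71CD* and *Arr2* are higher on every 250D array, and *for*, *Ddc*, *Hsr_omega*, *stv*, *CG6785*, *trpl* and *CG9747* lower on every one.

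The largest drop was that of *CG9747*, a gene for a fatty acyl desaturase, an enzyme that puts double bonds into fatty acids. Its log2 intensity was 11.06, 11.30 and 10.93 in 250D and 13.54, 15.41 and 15.39 in 150ND. The 250D arrays were tight, replicate a of 150ND lay below its other two arrays, and the groups were apart by -3.68 ± 0.46 (adjusted p = 1.57e-05; -3.38 without replicate c), with 7 of 8 probes called. In its list of 8 desaturases and cytochrome b5 relatives, *CG9747* was lower, *CG17928* higher and 6 were not called, with a median of 0.14 (0.60 without replicate c). The mean of *CG9747* was 10.74 in 50ND, 15.83 in 150D and 13.39 in 220D, so 150ND lay between the diapausing females at 150 and 220 days.

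*CG6785* stood at 5.64, 5.73 and 6.09 in 250D and 8.99, 7.94 and 9.64 in 150ND, a change of -3.04 ± 0.45 (adjusted p = 6.77e-05; -2.65 without replicate c). Its mean was 6.76 in 50ND and 10.83 in 150D. Only 1 of its 2 probes was called, the other having a change of -0.58.

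With all 3 150ND arrays, the heat shock and cold genes that were called were all lower in 250D. *Hsr_omega*, a noncoding RNA of the heat shock response, stood at 11.31, 10.96 and 11.31 in 250D and at 13.48, 13.43 and 13.42 in 150ND. Its arrays varied little within groups, and the change of -2.25 ± 0.22 (adjusted p = 6.81e-07) was -2.26 without replicate c. *stv*, which encodes the BAG-domain partner of Hsp70 in protein quality control, stood at 7.94, 7.62 and 8.22 against 10.03, 10.25 and 10.49, a change of -2.33 ± 0.55 (adjusted p = 0.0073; -2.21 without replicate c). *Hsp68*, the stress-inducible member of the Hsp70 family on the array, stood at 12.41, 12.54 and 12.30 against 13.67, 13.84 and 13.24, a change of -1.17 ± 0.23 (adjusted p = 0.0011; -1.34 without replicate c).

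*Fst* (Frost), induced in flies recovering from cold, stood at 7.27, 7.69 and 10.05 in 250D and at 9.90, 10.30 and 11.18 in 150ND. Replicate c of 250D lay within the 150ND range, and the change of -2.12 ± 0.56 (adjusted p = 0.013) became -1.76 (adjusted p = 0.069) without 150ND replicate c. Its second-brightest probe differed by 0.35, against the direction of the call, and 3 of its 8 probes were called lower. On 1 slide, which held 250D replicate c and 150ND replicate a, *Fst* differed by 0.15, against -3.49 and -3.03 on the other two. The 3 other genes of cold response and proline metabolism were not called; *regucalcin*, a calcium-binding protein gene, had -0.61 ± 0.39, with 12.37, 12.36 and 12.45 in 250D and 12.43, 12.23 and 14.34 in 150ND, so that its difference lay in 150ND replicate c alone, and *P5cr*, a gene of proline synthesis, had 0.37 ± 0.21. Of the 6 probes of *P5cr*, 2 were called higher and none lower. Its change ran from 0.02 to 2.18 across the alternative settings, and it was called higher under 1 of them.

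Most other chaperone genes were not called. The 7 members of the Hsp70 family had a median of -0.28 (-0.39 without replicate c), and *Hsp68* was the only one called, though not under 75th-percentile scaling, spike-in scaling or no normalization. *Hsc70-4*, the abundant constitutive member, had -0.28 ± 0.23. The list of Hsp90, chaperonins, co-chaperones and their regulator *Hsf* had 16 genes, among them the noncoding *Hsr_omega*. Of these, 2 were lower (*stv* and *Hsr_omega*) and none higher, with a median of -0.31. Without replicate c this list had 3 lower and a median of -0.44. Over all genes 6.42% were lower and 4.13% higher with all arrays, and calls this few do not set the Hsp70 or Hsp90 list apart. *Droj2*, a DnaJ co-chaperone gene, stood at 12.55, 12.57 and 12.37 in 250D and at 13.59, 14.12 and 12.33 in 150ND. Its call was made only without replicate c, where the change was -1.36 (adjusted p = 0.00082) and not -0.85 (adjusted p = 0.13). *Hsp83*, the gene of Hsp90, had -0.49 ± 0.29 (adjusted p = 0.34) and *Hop*, an Hsp70-Hsp90 adaptor, -0.27 ± 0.73. The SD of *Hop* was 0.19 in 250D and 0.42 in 150ND but 3.66 over the 7ND arrays, which share in that SE.

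None of the 5 small heat shock protein genes was called with all 3 150ND arrays, and their median was 0.10, or -0.42 without replicate c. *Hsp26*, a gene whose RNA is also made in developing egg chambers, stood at 17.35, 17.36 and 16.10 in 250D and at 17.36, 17.35 and 15.78 in 150ND, where 17.36 is the maximum that quantile normalization allows. *Hsp23*, a related gene that is also expressed in ovaries, stood at 16.34, 16.38 and 14.72 in 250D and 16.54, 16.38 and 14.72 in 150ND. The c array was the low one in both groups for both genes, as for the ovary list as a whole, of which 0 of 7 members were called. By comparison the diapausing 150D mean was 11.67 for *Hsp26* and 11.55 for *Hsp23*. The changes were 0.10 ± 0.82 for *Hsp26* and -0.07 ± 0.75 for *Hsp23*, so their errors leave room for a change past 2-fold either way. *Hsp20* was called higher only without replicate c, with an adjusted p of 0.019 against 0.13 and a change of 1.39 with all arrays.

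Of 19 phototransduction genes 14 were not called, 3 were higher (*ninaD*, *Arr2* and *Gbeta76C*) and 2 lower (*trpl* and *Rh5*), against 4.13% higher and 6.42% lower over all genes. The median of the list was -0.02. Without replicate c, 3 were higher and 1 lower, with a median of 0.18. *Arr2*, which encodes the arrestin that shuts off activated rhodopsin, stood at 10.88, 10.17 and 11.22 in 250D and 8.87, 7.26 and 9.22 in 150ND, a change of 2.30 ± 0.40 (adjusted p = 0.00036; 2.69 without replicate c). *Gbeta76C*, the beta subunit gene of the G protein of the eye, stood at 10.45, 9.62 and 10.31 against 8.80, 7.32 and 9.22, a change of 1.68 ± 0.39 (adjusted p = 0.0062; 2.06 without replicate c). For both genes replicate b was the lowest array of its group, in 250D and in 150ND alike.

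*trpl*, which encodes a cation channel that opens in response to light, stood at 5.83, 5.76 and 6.62 in 250D and 9.33, 8.21 and 9.84 in 150ND. All 3 spring arrays lay below all 3 winter arrays, and the change was -3.06 ± 0.42 (adjusted p = 3.43e-05; -2.70 without replicate c), with 4 of 8 probes called. *Rh5*, the gene of a blue-sensitive opsin, stood at 8.41, 8.71 and 9.09 in 250D and 10.49, 9.34 and 10.91 in 150ND, a change of -1.50 ± 0.38 (adjusted p = 0.0098) that became -1.17 (adjusted p = 0.061) without replicate c. *inaC*, the gene of the eye protein kinase C, and *norpA*, that of the eye phospholipase C, had -1.09 ± 0.37 and -1.06 ± 0.55, neither past the threshold (adjusted p of 0.073 and 0.29). With the replicate letter as a block *inaC* was called lower, at an adjusted p of 0.041, and without replicate c its change was -0.56. Across 11 photoreceptor markers 1 was higher and 1 lower, the median was 0.05, and the mean log2 level of the list was 9.03 to 9.71 in 250D and 8.49 to 9.97 in 150ND.

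Of 14 circadian clock genes, *per* was the only one called, and it was not called under spike-in scaling or without normalization. *per*, whose protein represses its own transcription over the day, stood at 4.94, 5.37 and 6.05 in 250D and 6.78, 6.75 and 7.23 in 150ND, a change of -1.47 ± 0.43 (adjusted p = 0.029), or -1.31 (adjusted p = 0.092) without replicate c. Its groups did not overlap, 7 of its 20 probes were called lower and none higher. *vri*, a transcriptional repressor of the clock loop, had -1.41 ± 0.76, *Clk*, the gene of its activator, 0.62 ± 0.47, and *tim*, the partner of *per*, 0.51 ± 0.50. *cry*, the blue-light receptor gene of the clock, was called higher only without replicate c, at 1.39 (adjusted p = 0.023) against 0.94 (adjusted p = 0.17). The hour of day at which the flies were taken was not analysed here.

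Among 11 genes of biogenic amines and pigmentation, the pair *Ddc* and *Dat* changed in opposite directions. *Ddc*, which encodes the decarboxylase that makes dopamine and serotonin, stood at 9.36, 8.99 and 9.13 in 250D and 11.01, 10.81 and 11.49 in 150ND, a change of -1.94 ± 0.45 (adjusted p = 0.007; -1.75 without replicate c). *Dat*, which encodes the N-acetyltransferase that acts on dopamine and serotonin, stood at 9.53, 9.34 and 10.33 against 8.26, 7.78 and 9.06, a change of 1.37 ± 0.36 (adjusted p = 0.013; 1.71 without replicate c). The call of *Dat* ended under spike-in scaling (adjusted p = 0.18) and without normalization (0.052). The median of the list was 0.36. It rests on the brightest probe of each gene, which for *ple*, an uncalled member, differed by 0.84. Of the 14 probes of *ple*, 6 were called lower and none higher, and the second-brightest differed by -1.22.

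The remaining lower genes were *for*, *Dr*, *tutl* and *sbb*, which share no list. *for*, the cGMP-dependent protein kinase gene known for its effect on foraging, stood at 8.59, 8.30 and 8.30 in 250D and 9.73, 10.24 and 10.24 in 150ND, a change of -1.67 ± 0.23 (adjusted p = 3.43e-05; -1.58 without replicate c). *Dr*, a homeobox gene of muscle and nerve development, stood at 7.01, 7.18 and 7.99 against 8.92, 9.98 and 10.45, a change of -2.39 ± 0.60 (adjusted p = 0.0098) seen by 6 of 6 probes, and of -2.05 (adjusted p = 0.054) without replicate c. *tutl*, an immunoglobulin-family cell surface gene, was lower by -1.35 ± 0.33 (adjusted p = 0.0097), or -1.10 (adjusted p = 0.051) without replicate c, and was not called under spike-in scaling or without normalization. Only 3 of the 12 probes of *tutl* were called lower. The second-brightest differed by -1.46, but the median change over its probes was -0.07. *sbb*, a nuclear protein gene of larval and eye development, stood at 10.40, 10.42 and 10.15 against 12.21, 11.81 and 11.98, a change of -1.68 ± 0.42 (adjusted p = 0.0098; -1.69 without replicate c), but 2 of its 12 probes were called and the second-brightest differed by 0.68.

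*rut*, the adenylyl cyclase gene of learning, did not overlap between groups, at 6.44, 6.69 and 6.82 against 7.62, 7.61 and 8.62, with a change of -1.30 ± 0.42. Its adjusted p was 0.055, and 0.037 with the replicate letter as a block, so that the paired fit called it lower. The probes of *rut* differed among themselves. Of 22, 6 were called lower and 1 higher, and the second-brightest differed by -0.16. *hang*, a zinc finger gene of ethanol tolerance, stood at 5.46, 5.16 and 4.19 in 250D and 6.75, 7.38 and 4.98 in 150ND, with replicate c the low array in both groups. Its change was -1.43 (adjusted p = 0.08) with and -2.13 (adjusted p = 0.0023) without 150ND replicate c, and with the replicate letter as a block it was called lower with all 3 arrays (adjusted p = 0.028). *CG10990* was likewise called lower only without replicate c, at -1.17 (adjusted p = 0.026).

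With all 3 150ND arrays, 10.6% of all 218 genes were called, a share at which short lists hold few calls or none. Lists with none were the insulin pathway and stress kinases (0 of 14, median -0.21), sex determination and courtship (0 of 8, 0.27), ion channels and pumps (0 of 14, -0.01), the synapse (0 of 10, -0.18), ribosomal proteins and translation (0 of 7, -0.11), RNA binding and editing (0 of 8, -0.29), neuronal markers (0 of 8, 0.00) and muscle markers (0 of 3, 0.62). In the insulin list *InR*, the insulin receptor gene, stood at 5.71, 5.66 and 5.67 in 250D and 6.21, 6.60 and 6.18 in 150ND. Its groups did not overlap, and its change of -0.65 ± 0.20 had an adjusted p of 0.036 (0.026 without replicate c) but missed the 2-fold limit. *Pi3K92E*, a phosphoinositide 3-kinase gene, had -1.43 ± 0.76 (adjusted p = 0.29). *Thor*, the translational repressor downstream of insulin, stood at 12.56, 12.92 and 12.67 in 250D and 13.68, 12.79 and 14.03 in 150ND, a change of -0.79 ± 0.28 (adjusted p = 0.08). Further values were -0.30 ± 0.26 for *cpo*, an RNA-binding protein gene, -0.03 ± 0.37 for the histone gene *His3.3A*, 0.62 ± 0.28 for *Act42A* and 0.07 ± 0.32 for *Mhc*, genes of actin and muscle myosin, and -0.27 ± 0.24 for *drpr*, the engulfment receptor gene.

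**Figure D4:**
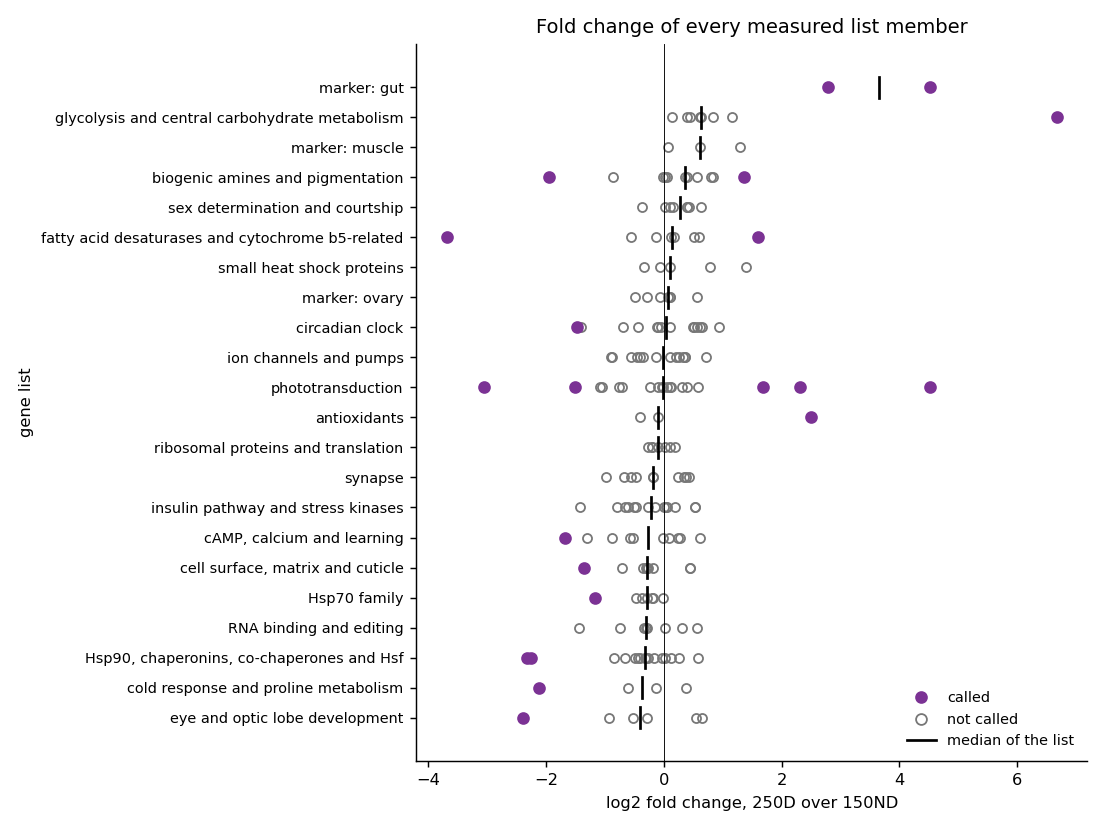
Log2 fold change of 250D over 150ND (horizontal axis) for every measured member of each gene list (vertical axis), with called genes filled, others open, and the median of each list as a bar. Called genes lie on both sides of 0 in the phototransduction, desaturase and amine lists. The 1 called gene of the Hsp70 list and the 2 of the Hsp90 list are lower, as are 14 of all 23 called genes.

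The called genes were then followed into groups outside the contrast. For 21 of the 23 the mean of 50ND, reproductive females in summer conditions, was nearer to 250D than to 150ND, the exceptions being *Eip71CD* and *Hsp68*, as it was for 126 of all 218 genes. For 21 of the 23 the mean of 150D, diapausing females of the same winter as 150ND, was nearer to 150ND, the exceptions being *CG17928* and *Eip71CD*, as it was for 142 of all 218. The 220D mean was nearer to 150ND for 13 of the 14 lower genes, the exception being *Hsp68*, and for 121 of all 218 genes. It was nearer to 150ND for 2 of the 9 higher genes, *CG34366* and *Jon25Bi*. The higher genes *Arr2* and *Gbeta76C* stood at 11.31 and 10.27 in 220D, close to 250D, while *CG9747*, *trpl* and *Hsr_omega* were at 13.39, 9.19 and 13.42, close to 150ND.

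A test in which none of the 6 arrays entered the compared means was the contrast of 50ND with 150D in the same limma fit, which shared the normalization, the choice of probes and the estimate of spread with them and was chosen after the calls were known. It called 68 of 218 genes (31.2%), 31 of them higher (14.2%) and 37 lower (17%) in 50ND. The 50ND and 150D females differed at once in diapause, ovary state, age, season, light and temperature. Which of these any gene followed was not tested. Of the 14 genes lower in 250D, 13 were lower in 50ND than in 150D and none was higher, *Hsp68* being the one not called, at -0.33 ± 0.23 (adjusted p = 0.27). The 9 genes higher in 250D were less uniform, with 4 higher in 50ND (*Adh*, *CG34366*, *Arr2* and *Gbeta76C*), 1 lower and 4 not called. *CG17928* was the one that ran the other way, at -2.15 ± 0.46 (adjusted p = 0.0014), with means of 7.05 in 50ND and 9.19 in 150D against 7.44 in 250D and 5.84 in 150ND. *Eip71CD* was higher in 250D without a matching difference there, at -0.51 ± 0.37 (adjusted p = 0.29), with a 50ND mean of 7.77 and a 150D mean of 8.28. *ninaD* had 1.33 ± 0.60, *Jon25Bi* 0.97 ± 0.46 and *Dat* 0.59 ± 0.36 there, with adjusted p from 0.094 to 0.21.

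**Figure D5:**
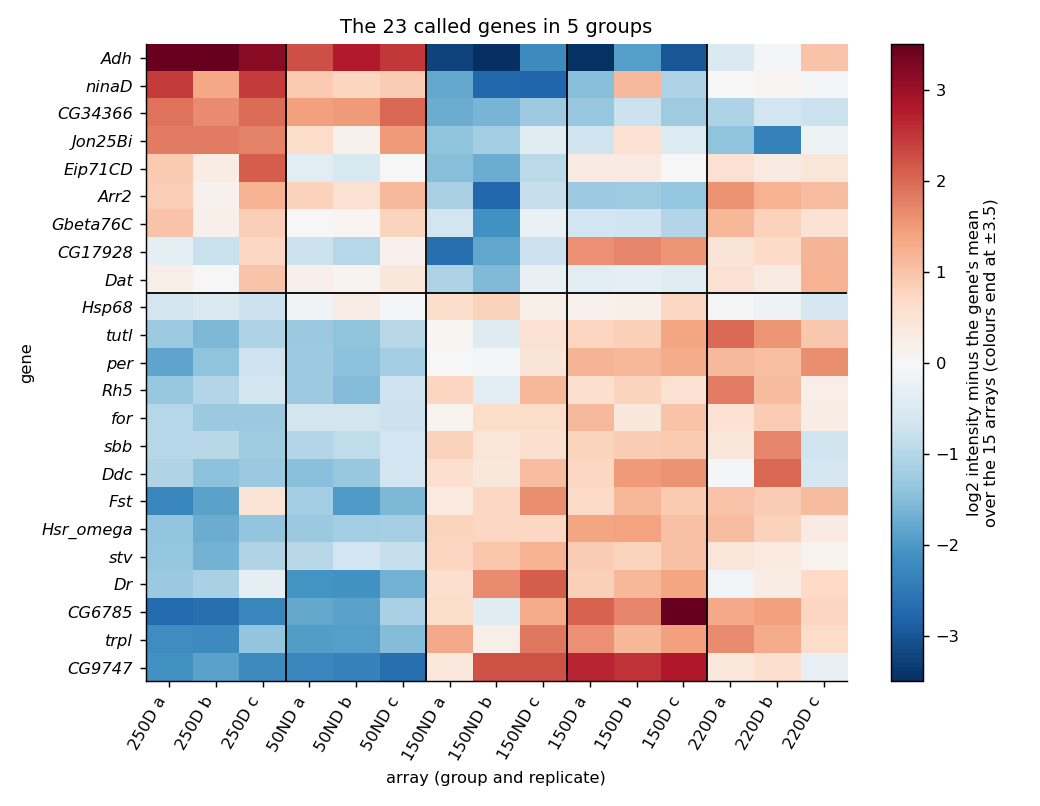
The 23 called genes (vertical axis, highest fold change on top) on the 15 arrays of 250D, 50ND, 150ND, 150D and 220D (horizontal axis), coloured by log2 intensity minus the gene's mean over these arrays. The 14 lower genes are mostly blue in 250D and 50ND and red in the 3 other groups, and *CG17928* is highest in 150D, where its mean is 9.19.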

How the data were processed

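RNA of 23 samples was hybridized in 1 colour to custom Agilent arrays with 8 spots for each of 1850 gene probes. The deposited scanner files hold the intensity of each spot from Feature Extraction 10.7.1.1, which the authors ran and which subtracts local background; the authors also deposited a table of normalized intensities, used as an alternative. The log2 intensities of gene spots were quantile-normalized over the 23 arrays, spots were averaged without those marked as outliers (in 43 cases all spots of a probe were marked and kept), and the brightest probe of each gene was used. Probes of both strands were pooled, so the strand measured was not established. Group means were fitted over all 23 arrays with limma 3.58.1 in R 4.3.3, p-values were adjusted over 218 genes, and a call needed a 2-fold difference and an adjusted p below 0.05. Depth has no meaning for arrays; the 3 arrays a group limit the precision. One array outside the comparison, 7ND replicate c, had a median intensity of 530 and 3764 outlier spots, but shares in the estimate of spread.

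Replicates are biological pools of flies per the study's methods. Deviations of same-lettered 250D and 150ND arrays from their group means correlated at 0.29 (a), 0.24 (b) and 0.56 (c). All were over 0.1, and by that rule the letters would pair the arrays. The labels do not state such a pairing, however, and 250D b with 150ND a, of different letters, correlated at 0.46. The main fit had no block for the letter, and the fit with that block is given as an alternative. With the letter as a block, 9 genes were higher and 17 lower. Each of the 3 slides held 1 array of each group, and with the slide as a block 9 were higher and 14 lower. Of the 23 called genes, 23 differed in the same direction in all 3 letter pairs and 21 on all 3 slides. Among all 218 genes, 107 did so in the letter pairs and 77 on the slides. The arrays of the groups did not overlap for 21 of the 23 called genes, so any pairing had to give these the same direction. Only for *CG17928* and *Fst* could the direction vary, so these counts are no separate test of the calls. The text names the called genes, up to 4 members of each gene list, and genes the study followed; the members and lists were chosen with earlier results of these data known. Gene names are those of the array design, and 163 of 218 were found in the RefSeq gene table for this species.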

Additional observations from a re-analysis of the deposited data

How the results depend on the processing

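Of the 23 called genes, 12 were called in the same direction under all 27 settings, and no called gene reversed under any of them. The least stable calls were those of *per*, *Fst*, *CG17928*, *tutl*, *Rh5*, *Dat* and *Hsp68*, made under 13, 14, 16, 16, 17, 20 and 21 settings. The authors' table gave 11 higher and 22 lower genes, against 9 and 14. Leaving out each array in turn gave 7 to 11 higher and 10 to 18 lower genes; *CG17928* and *per* lost the call without 150ND replicate a, *CG17928* and *Dat* without 150ND replicate b or 250D replicate c, *CG17928*, *Dr*, *Fst*, *Rh5* and *per* without 250D replicate a, and *Fst*, *per* and *tutl* without 250D replicate b. Without 150ND replicate c, scaling on the 75th percentile gave 14 higher, spike-in scaling 7 higher, and 15 higher and 23 lower came from the authors' table, against 11 and 12. The share of called genes that were higher was 39.1%, or 47.8% without replicate c, and without that array it was 53.8% under 75th-percentile scaling. Of all 27 settings the share was lowest, 28%, without 150ND replicate b and without 250D replicate c, and testing every probe gave 50%. When 7ND replicate c did not share in the spread, 10 were higher and 21 lower. The replicate block gave 9 higher and 17 lower, gaining *hang*, *inaC* and *rut*, and changed no other call. Named genes that changed sign were all uncalled and mostly near 0. *Hsp26* became -0.42 without 150ND replicate c and, with that array out, -0.076 under 75th-percentile scaling, -0.20 without normalization, -0.42 with spike-ins, -0.40 in the authors' table, -0.38 with normexp and -0.41 with 6 arrays. *Hsp23* became 0.20 under 75th-percentile scaling, 0.18 without normalization, 0.080 with spike-ins, 0.044 for the mean of probes and 0.018 for single probes. *His3.3A* became 0.16, 0.14 and 0.043 under the same 3 scalings and 0.0093 for single probes. *regucalcin* without 150ND replicate c became 0.059, and 0.55, 0.43, 0.21, 0.080, 0.067 and 0.056 under the settings listed for *Hsp26*. *cpo* and *Thor* became 0.018 and 0.017 under 75th-percentile scaling without that array. *Hsc70-4* became 0.079 under 75th-percentile scaling (0.077 without that array) and 0.060 without normalization. For the mean of probes *Hop* became 0.28 and *drpr* 0.17. Leaving out each array in turn, *Hsp26* ran from -0.42 to 0.52, *Hsp23* from -0.65 to 0.48, *His3.3A* from -0.57 to 0.26, *regucalcin* from -0.99 to 0.059, *Mhc* from -0.25 to 0.33, *Hsc70-4* from -0.49 to 0.011 and *tim* from -0.0084 to 0.86. Signal over background was enough on all 6 arrays for 202 of the 218 genes.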
